A study of Rattus norvegicus with 10 samples.

Results

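Chemokines are small secreted proteins that draw leukocytes along a gradient through membrane receptors on the cells that follow them. Their expression was compared in hearts of adult rats at 6 months and aged rats at 24 months. The genes described here are those whose array annotation names a chemokine (Ccl, Cxcl, Cx3cl, Xcl, Pf4 and Ppbp) or a chemokine receptor (Ccr, Cxcr, Cx3cr and the atypical Ackr family). They make up 47 of the 14217 named genes and 60 of the 31042 probe sets of the Affymetrix Rat Genome 230 2.0 array. Of these genes, 31 encode ligands and 16 encode receptors, and all were tested because no filter on low values was used. Other family members, among them Ccr7, Cxcr6, Cxcl5 and Xcr1, were not analysed here. All rats were male and of the inbred Fischer-344 strain on standard chow, with no treatment, 5 arrays for each age. The labels' protocols name the whole heart and the series text names the ventricles. The labels do not state whether every array came from its own animal. The p-values therefore reflect only how much these samples varied, which may be technical.

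Ligands are often divided into inflammatory ones, made on demand at sites of injury, and homeostatic ones, which position lymphocytes and other cells in healthy tissue. Receptors signal through inhibitory G proteins and, in many cases, share ligands, whereas atypical receptors bind chemokines without that signalling and take them up or carry them across cells. In the heart, resident macrophages, endothelium and fibroblasts are known chemokine sources, and the receptors sit mainly on leukocytes. In whole-tissue RNA, fewer cells of a type and less RNA per cell cannot be told apart.

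Each deposited value is a log value of a probe set with the median of the 10 arrays at 0, treated as log2. It shows how arrays differ and gives no level, so no gene is compared with another in abundance. The median over probe sets ran from -0.0061 to 0.0093 on adult arrays and from -0.0097 to 0.0038 on aged ones. All 8 cardiomyocyte markers looked for, such as Tnnt2 and Ryr2, were measured, and each had a probe set in the brightest of 3 approximate classes drawn from the spacing of the stored numbers. Among chemokine and receptor probe sets, 5 of 60 were in the dimmest class and 9 in the brightest. Adult replicate 1 had the highest adult value in 22 of the 47 genes, more often than any other adult array. Aged replicates 3 and 6 stood apart in markers of natural killer (NK) cells, with list means of 1.72 and 1.45 against -0.01 to 0.24 on the other aged arrays. Aged replicate 6, the highest aged array in 5 of the 8 ligands called below, also had an erythroid marker mean of 1.21 against -0.50 to 0.22 on the other aged arrays. Adult replicate 2, the lowest adult array in 3 of these 8, had an adipocyte marker mean of 1.22 against -0.12 to 0.05 on the other adult arrays. The part of these differences in the results was not tested.

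Of the 47 genes, 8 were higher in aged hearts at an adjusted p under 0.05 by limma, or 17.0%, where 6.77% of all named genes were higher and 11.9% were called in either direction. They were all ligands: Cxcl13, Ccl5, Pf4, Cxcl16, Ccl4, Ccl3, Ccl20 and Cx3cl1. By limma 0 were lower, where 5.09% of all genes were. At an unadjusted p under 0.05, 15 of the 47 were higher and 1, the receptor gene Cxcr1, was lower, beside 26.3% of all genes in either direction. By the exact two-sided permutation test at that threshold, 9 were higher, namely those 8 and Ccl2, and 1 was lower, the receptor gene Cxcr5. Each of the 8 was read by 1 probe set, and each also passed when the test ran over all probe sets, of which 8.03% were called. The median difference, aged minus adult, was 0.16 over the 31 ligands and -0.04 over the 16 receptors, beside -0.01 over all genes. Adult and aged values did not overlap in 6 of the 47 genes (12.8%), all of them higher in aged hearts and among the 8, beside 9.91% of all genes, or 5.13% counting only those higher in aged hearts. The count of members higher in aged hearts when 1 array was left out ran from 5, without adult replicate 2 or 3, to 11, without adult replicate 1. Without aged replicates 3 and 6 together it was 7, with Ccl3 and Ccl5 lost and the receptor gene Ackr3 gained.

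**Figure D1:**
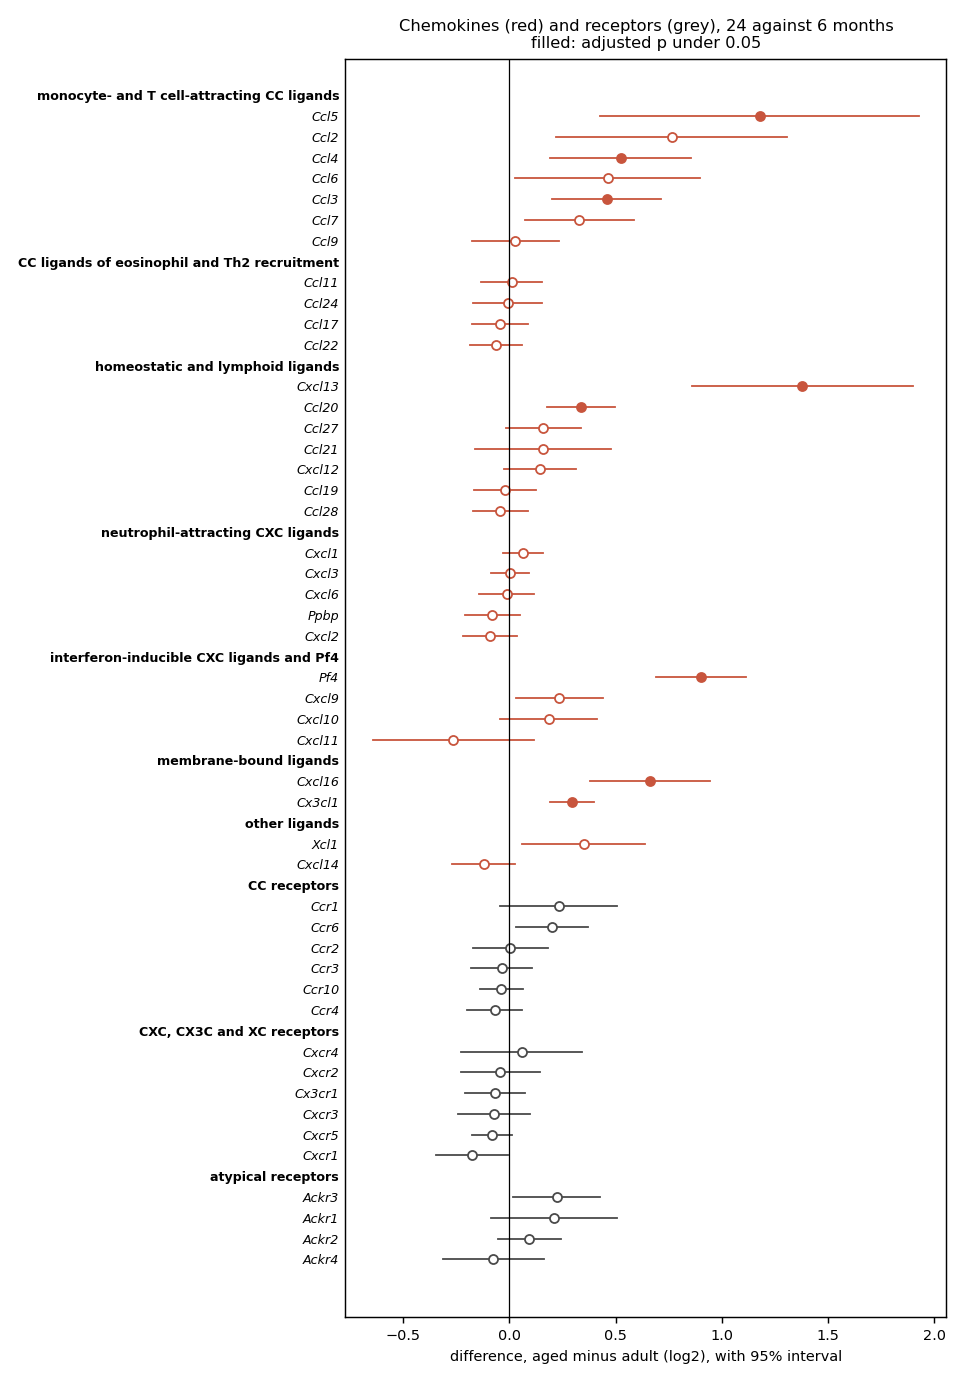
Difference between aged and adult hearts (log2, aged minus adult, x axis) for each of the 47 genes, grouped by role, with the 95% interval of the limma fit as a line. Filled circles mark an adjusted p under 0.05: 8 ligands are filled, all to the right of 0, and none of the 16 receptors is.

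The upstream sequences of a few members are shown because NF-kappaB, the transcription factor that many inflammatory stimuli switch on, is known to drive several chemokine genes, and because Cxcl13 and Ccl20 were among the ligands that rose. Of the 47 genes, 36 were matched by symbol to the RefSeq promoter table of assembly GRCr8. Both stretches cover the 250 bases before the annotated start, read 5′ to 3′ in the direction of the gene. Capitals mark the TATA box of Cxcl13, 33 to 28 bases before its start, and the NF-kappaB motif of Ccl20, on the opposite strand 89 to 80 bases before its start.
Cxcl13, minus strand of chr14:13917921-13918170, GRCr8: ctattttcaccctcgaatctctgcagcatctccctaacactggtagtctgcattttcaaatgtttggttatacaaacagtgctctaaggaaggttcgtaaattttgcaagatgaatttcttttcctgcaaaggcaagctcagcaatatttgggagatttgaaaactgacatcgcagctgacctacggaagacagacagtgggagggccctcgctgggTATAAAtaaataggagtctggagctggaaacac
Ccl20, plus strand of chr9:91836909-91837158, GRCr8: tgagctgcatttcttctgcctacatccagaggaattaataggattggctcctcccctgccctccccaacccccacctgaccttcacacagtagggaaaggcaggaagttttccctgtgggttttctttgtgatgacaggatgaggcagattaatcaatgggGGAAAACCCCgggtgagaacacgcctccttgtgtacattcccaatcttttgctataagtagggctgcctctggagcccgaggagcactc

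The TATA box (TATAAA, sense strand) was found in 10 of the 36 member windows (27.8%) and in 8.38% of 27457 windows of all genes of the same length. The NF-kappaB consensus, searched on both strands, was found in 9 of the 36 (25.0%) and in 6.41% of all windows. Among the 8 genes that rose, 4 had a window in the table, and Ccl20 was the 1 of them with the NF-kappaB letters. Example stretches of 30 bases around the motif are given for the neutrophil attractants Cxcl1, Cxcl2 and Cxcl6 and the CC ligands Ccl7 and Ccl9. These held the motif and did not pass the test. The same was true of Cxcl10, Cxcl11 and Ccr3, whose stretches are not shown. Capitals mark the motif, or 2 or more overlapping matches of it.
Cxcl1, minus strand of chr14:17479386-17479415, GRCr8: cctgtgctccGGGAATTTCCCtggcctgga
Cxcl2, minus strand of chr14:17467310-17467339, GRCr8: cctaagctcaGGGGATTTCCCtgatccctg
Cxcl6, minus strand of chr14:17596486-17596515, GRCr8: tccaaggcccGGGAATTTCCCcagcatctt
Ccl7, plus strand of chr10:67514026-67514055, GRCr8: tcattccaaaGGAAGATCCCgccctaactg
Ccl9, minus strand of chr10:68868964-68868993, GRCr8: ttgaaagtttGGAAAGCCCCaagtcacctt
A match describes these letters and not a bound site.

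Cxcl13, which draws B cells into lymphoid follicles, had the largest difference of the family and the 13th largest rise of all 14217 genes. On the adult arrays (replicates 1, 2, 3, 4 and 6) its values were -0.03, -0.55, -1.11, -0.67 and -1.11. On the aged arrays (replicates 2, 3, 4, 5 and 6) they were 0.03, 0.92, 0.50, 0.65 and 1.32. Every aged array lay above every adult array, with adult replicate 1 and aged replicate 2 next to each other at the border. The difference was 1.38 ± 0.24 (standard error of the fit, SE), or 2.60-fold, with an adjusted p of 0.00476 by limma (n = 5 per age). Cxcr5, the receptor for this ligand on B cells and follicular helper T cells, did not pass (-0.08 ± 0.04 SE, adjusted p = 0.263). Its adult values ran from -0.03 to 0.13 and its aged values from -0.06 to 0.01. Its 95% interval was -0.18 to 0.01. Its 2 probe sets gave -0.03 and -0.13, neither of which passed over all probe sets. B cell markers showed 0 of 3 measured genes called by limma, with 1 lower at an unadjusted p under 0.05 and 1 lower by the exact permutation test. Their list mean lay between -0.02 and 0.15 in adult and between -0.14 and -0.02 in aged arrays.

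Among the CC ligands that draw monocytes and T cells, all 7 measured had a higher mean in aged hearts and 3 rose: Ccl5, Ccl4 and Ccl3. Over all genes, 6852 of 14217 had a higher mean and 6.77% were called higher. The median difference of the 7 was 0.46, against -0.01 over all genes. Ccl5, also called RANTES, is made by activated T and NK cells and has Ccr1 and Ccr3 among its receptors. It read 0.12, -0.87, -0.34, -0.38 and -0.31 on the adult arrays and 0.03, 1.74, -0.03, 0.58 and 1.77 on the aged arrays. Aged replicates 3 and 6 were far above the rest, and aged replicates 2 and 4 lay below adult replicate 1, so the ages overlapped. The difference was 1.18 ± 0.35 SE, or 2.26-fold (adjusted p = 0.0451), with a standard deviation (SD) of 0.89 among aged and 0.35 among adult arrays. With single arrays left out, Ccl5 missed the threshold for 4 adult arrays, replicates 2, 3, 4 and 6 (adjusted p = 0.110, 0.0904, 0.0809 and 0.0768). It also missed it for the aged replicates 3, 5 and 6 (adjusted p = 0.0778, 0.0745 and 0.0967). Without both aged replicates 3 and 6 the difference was 0.55 (adjusted p = 0.113), and with a robust fit the adjusted p was 0.0850. The same 2 arrays were those of the highest NK marker means. In that list 2 of 6 genes rose, Klrd1, an NK receptor gene (0.96 ± 0.26 SE, adjusted p = 0.0306), and Gzmb, which encodes granzyme B (1.46 ± 0.42 SE, adjusted p = 0.0431). Nkg7, Prf1, Klrb1a and Ncr1 did not pass, with differences of 1.11, 1.40, 0.58 and 0.02. T cell markers had a median difference of 0.03 and 0 of 8 called by limma, 1 at an unadjusted p under 0.05 and 0 by the exact test. Their list mean was also highest on aged replicates 3 and 6, at 0.145 and 0.151. Within the list, Cd8a, the CD8 alpha chain that rat NK cells carry too, read 0.85 and 0.75 on those arrays against -0.10 to -0.01 on the other aged ones. Cd247, the CD3 zeta chain of T and NK cells, read 0.69 and 0.76 against -0.12 to 0.08. The rest of the list was mixed on aged replicates 3 and 6. Cd2 read 0.29 and -0.01 there, Cd5 0.13 and -0.17, and Cd3g -0.46 and 0.24. Cd3e read -0.22 and -0.03, Cd3d -0.07 and -0.25, and Cd4 -0.05 and -0.09. The part of NK cells and T cells in the Ccl5 result was not tested.

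Ccl3 and Ccl4, the macrophage inflammatory proteins 1 alpha and 1 beta, are made by macrophages and lymphocytes. Ccl3 read -0.03, -0.46, -0.35, -0.16 and -0.19 on the adult arrays and 0.03, 0.37, 0.05, 0.05 and 0.61 on the aged arrays. Ccl4 read -0.08, -0.47, -0.25, -0.20 and -0.03 against 0.03, 0.18, 0.14, 0.27 and 0.97. Neither overlapped between the ages, and aged replicate 6 was the highest array for both. Ccl3 rose by 0.46 ± 0.12 SE (1.37-fold, adjusted p = 0.0258) and Ccl4 by 0.52 ± 0.15 SE (1.44-fold, adjusted p = 0.0430). Ccl3 missed the threshold when adult replicate 2 or 3 was left out (adjusted p = 0.0670 and 0.0684) and when aged replicates 3 and 6 both were (0.28, adjusted p = 0.0822). Ccl4 missed it when any 1 of adult replicates 1, 2, 3, 4 and 6 was left out (adjusted p = 0.0566, 0.105, 0.0938, 0.0759 and 0.0535) and when aged replicate 5 was (adjusted p = 0.0803). Macrophage marker means lay between -0.43 and -0.06 in adult and between 0.02 and 1.13 in aged arrays, with aged replicate 6 again the highest. By limma 3 of the 9 markers were called higher, where 6.77% of all genes were. All 9 were higher at an unadjusted p under 0.05, and all 9 by the exact test. The part of macrophage number in the Ccl3 and Ccl4 results was not tested.

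The remaining CC ligands of this role did not pass. Ccl2, the main monocyte attractant and ligand of Ccr2, read 0.53, -0.89, -0.56, -1.08 and -0.61 in adult and -0.18, 0.45, 0.18, 0.57 and 0.19 in aged hearts. Adult replicate 1 was apart from the other adult arrays and above 4 of the 5 aged ones, which gave adult arrays an SD of 0.63 against 0.29. The difference was 0.76 ± 0.25 SE (1.70-fold, adjusted p = 0.0685), and without adult replicate 1 it was 1.03 (adjusted p = 0.00342). It also passed without aged replicate 2 (0.87, adjusted p = 0.0470) and with array weights (0.77, adjusted p = 0.0460). Ccl7, another Ccr2 ligand, showed the same arrangement, with adult replicate 1 at 0.23, the other adult arrays between -0.57 and -0.21, and aged arrays between -0.04 and 0.14. Its difference was 0.33 ± 0.12 SE (adjusted p = 0.0922), and 0.45 without adult replicate 1 (adjusted p = 0.00401). Ccl6, made by macrophages in rodents, was 0.46 ± 0.20 SE higher (adjusted p = 0.163), with 0.74 and 0.99 on aged replicates 5 and 6 and 0.39 on adult replicate 1. Ccl9 gave 0.03 ± 0.09 SE (adjusted p = 0.890).

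**Figure D2:**
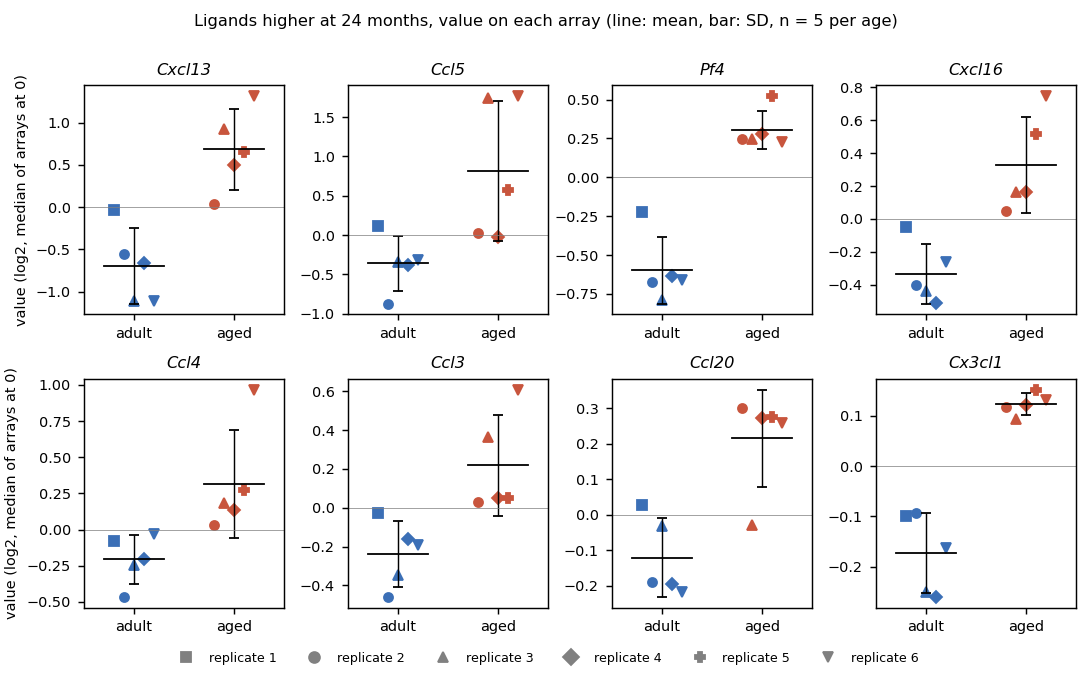
Value of each array (y axis, log2, median of the 10 arrays at 0) for the 8 ligands that were higher in aged hearts, with the mean as a line, the SD as a bar and 1 marker shape per replicate number (n = 5 per age). In 6 of the 8 panels the ages do not overlap; Ccl5 and Ccl20 are the exceptions.

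Both ligands that are made as membrane proteins and can be shed rose. Cxcl16, a ligand of Cxcr6 that also binds oxidized lipoprotein as a scavenger receptor, read -0.05, -0.40, -0.44, -0.51 and -0.26 in adult and 0.05, 0.16, 0.16, 0.52 and 0.75 in aged hearts. Aged replicates 5 and 6 were the highest, and the ages did not overlap. The difference was 0.66 ± 0.13 SE, or 1.58-fold (adjusted p = 0.00763). Cx3cl1, or fractalkine, which endothelium and neurons display to catch monocytes and NK cells, had a smaller and very even rise. It read -0.10, -0.09, -0.25, -0.26 and -0.16 in adult and 0.12, 0.09, 0.12, 0.15 and 0.13 in aged hearts, with an SD of 0.02 over the aged arrays. The difference was 0.30 ± 0.05 SE, or 1.23-fold (adjusted p = 0.00299). Cx3cr1, its receptor on monocytes, resident macrophages and NK cells, did not pass (-0.07 ± 0.07 SE, adjusted p = 0.562), with adult values from -0.08 to 0.18 and aged values from -0.21 to 0.09. Endothelial marker means did not overlap either, from -0.13 to -0.03 in adult and from 0.02 to 0.30 in aged arrays. In that list 2 of 6 genes were called higher, Vwf (0.94, adjusted p = 0.023) and Tek (0.35, adjusted p = 0.017), where 6.77% of all genes were. Pecam1, Erg, Kdr and Egfl7 did not pass, with differences of 0.19, 0.11, -0.03 and -0.01. The part of these markers in the Cx3cl1 result was not tested.

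Pf4, platelet factor 4, is stored in platelet granules and is also expressed by macrophages. It had the smallest p of the family. It read -0.23, -0.67, -0.79, -0.63 and -0.66 in adult and 0.25, 0.25, 0.28, 0.52 and 0.23 in aged hearts. All 5 aged arrays were higher than all 5 adult arrays, with adult replicate 1 nearest to the aged group. The difference was 0.90 ± 0.10 SE, or 1.87-fold (adjusted p = 0.000858), and the value without any 1 array lay between 0.847 and 0.995. Ppbp, the other platelet chemokine and the next gene to Pf4 in RefSeq order, gave -0.08 ± 0.06 SE (adjusted p = 0.437). Its adult values ran from -0.08 to 0.15 and its aged values from -0.18 to 0.02. Of the 4 platelet and megakaryocyte markers measured, 0 were called by limma, 0 at an unadjusted p under 0.05 and 0 by the exact test, with a median difference of -0.05. Their list mean ran from -0.09 to 0.06 in adult and from -0.08 to 0.17 in aged arrays. The macrophage markers Cd163 (0.84 ± 0.15 SE, adjusted p = 0.00589), C1qa (0.86 ± 0.18 SE, adjusted p = 0.00998) and Mrc1 (1.04 ± 0.27 SE, adjusted p = 0.0270) rose. Over the aged arrays the macrophage list mean ran from 0.02 on replicate 2 to 1.13 on replicate 6, where Pf4 had its lowest aged value. The part of macrophages in the Pf4 result was not tested.

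The interferon-inducible ligands Cxcl9, Cxcl10 and Cxcl11, which draw activated T and NK cells through Cxcr3, did not pass. Cxcl9 was 0.23 ± 0.09 SE higher (adjusted p = 0.133) and passed without adult replicate 1 (0.30, adjusted p = 0.0453). Its 2 probe sets gave 0.36 and 0.11. Cxcl10 gave 0.18 ± 0.11 SE (adjusted p = 0.301) and Cxcl11 gave -0.26 ± 0.17 SE (adjusted p = 0.379), the latter with -0.88 on aged replicate 3. Cxcr3 gave -0.07 ± 0.08 SE (adjusted p = 0.622). Xcl1, a lymphotactin made by NK and CD8+ T cells, was 0.35 ± 0.13 SE higher (adjusted p = 0.112). It passed without adult replicate 1 (0.45, adjusted p = 0.0349) or aged replicate 3 (0.44, adjusted p = 0.0387), and with array weights (0.39, adjusted p = 0.0460).

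Of the homeostatic and lymphoid ligands, 2 of 7 rose, Cxcl13 and Ccl20, and the other 5 did not pass. Ccl20, which attracts dendritic cells, Th17 cells and B cells through Ccr6, read 0.03, -0.19, -0.03, -0.20 and -0.22 in adult and 0.30, -0.03, 0.27, 0.28 and 0.26 in aged hearts. Aged replicate 3 lay among the adult arrays, and the other 4 aged arrays were above them all. The difference was 0.34 ± 0.07 SE, or 1.26-fold (adjusted p = 0.0125). Ccr6, its only known chemokine receptor, was 0.20 ± 0.08 SE higher and did not pass (adjusted p = 0.115), with 4 of 5 aged arrays above all adult arrays and aged replicate 2 at -0.14. Without aged replicate 2 it passed (0.27, adjusted p = 0.0154). Cxcl12, the stromal ligand of Cxcr4, gave 0.14 ± 0.08 SE (adjusted p = 0.273), and its 3 probe sets gave 0.36, 0.15 and -0.08, none of which passed over all probe sets. Ccl21, a ligand of Ccr7 made by lymphatic endothelium, gave 0.16 ± 0.15 SE (adjusted p = 0.549), with 0.78 on aged replicate 5. Without that array the difference was -0.00131. The differences of Ccl27, Ccl19 and Ccl28 were 0.16, -0.02 and -0.04, and the only probe set of Ccl28 was in the dimmest class.

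No ligand that attracts neutrophils through Cxcr2, and none of eosinophil and Th2 recruitment, passed the test. Of the 5 neutrophil attractants measured, Cxcl1, Cxcl2, Cxcl3, Cxcl6 and Ppbp, 0 were called by limma, 0 at an unadjusted p under 0.05 and 0 by the exact test. Their differences ran from -0.09 for Cxcl2 to 0.06 for Cxcl1. The 5 probe sets of Cxcl3 gave between -0.05 and 0.06, and its 95% interval was -0.09 to 0.09. The only probe set of Cxcl1 and 1 of the 5 of Cxcl3 were in the dimmest class. Signal over background was not analysed, so no change and no signal cannot be told apart there. Cxcr2 gave -0.04 ± 0.09 SE (adjusted p = 0.800) and Cxcr1 -0.18 ± 0.08 SE (adjusted p = 0.179). Neutrophil marker means did not overlap, from -0.15 to -0.01 in adult and from 0.09 to 0.79 in aged arrays. In that list 1 of 4 genes rose, the calprotectin gene S100a9 (1.08 ± 0.28 SE, adjusted p = 0.0271). Among Ccl11, Ccl24, Ccl17 and Ccl22, 0 of 4 were called by limma, 0 at an unadjusted p under 0.05 and 0 by the exact test, with differences from -0.06 to 0.01. The only probe set of Ccl11 and 1 of the 2 of Ccl22 were in the dimmest class, with the same limit. Ccr3 and Ccr4, the receptors of these ligands, gave -0.04 and -0.07. Cxcl14, a ligand found in many epithelia, gave -0.12 ± 0.07 SE (adjusted p = 0.296).

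**Figure D3:**
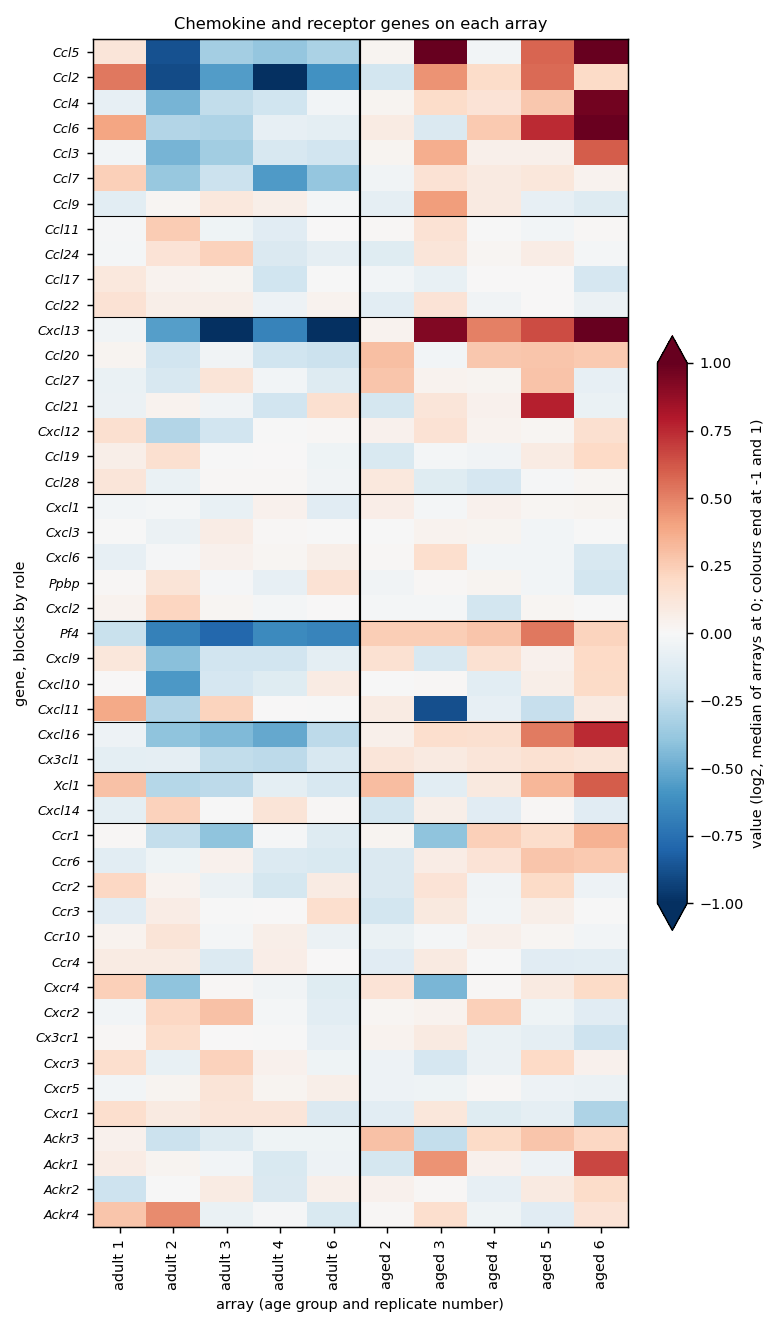
Values of the 47 genes (rows, in blocks by role) on the 10 arrays (columns), as log2 values with the median of the arrays at 0 and colours ending at -1 and 1. The largest contrasts between the ages are in the blocks with Ccl5, Cxcl13, Pf4 and Cxcl16, and adult replicate 1 is paler or redder there than the other adult arrays.

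None of the 16 receptor genes passed the test by limma, whereas 3 had an unadjusted p under 0.05: Ccr6 and Ackr3 higher and Cxcr1 lower. The exact permutation p of Cxcr5 was 0.0159. Receptor differences ran from -0.18 for Cxcr1 to 0.23 for Ccr1. For 14 of the 16 both limits of the 95% interval lay within 0.5 of 0, and the exceptions were Ccr1 and Ackr1, with upper limits of 0.51 and 0.51. For receptors too, signal over background was not analysed, so no change and no signal cannot be told apart. Ccr1, the receptor of Ccl3 and Ccl5 on monocytes, was 0.23 ± 0.13 SE higher (adjusted p = 0.279), with -0.40 on aged replicate 3. Without that array it passed (0.35, adjusted p = 0.0272). Ccr2, the receptor that brings monocytes from blood, gave 0.00 ± 0.08 SE (adjusted p = 0.987), with a 95% interval of -0.17 to 0.18, beside 0.76 and 0.33 for its ligands Ccl2 and Ccl7. Cxcr4 gave 0.06 ± 0.13 SE (adjusted p = 0.829), and its 3 probe sets gave between 0.03 and 0.09. Ccr10, a receptor of skin and mucosal lymphocytes, gave -0.04.

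**Figure D4:**
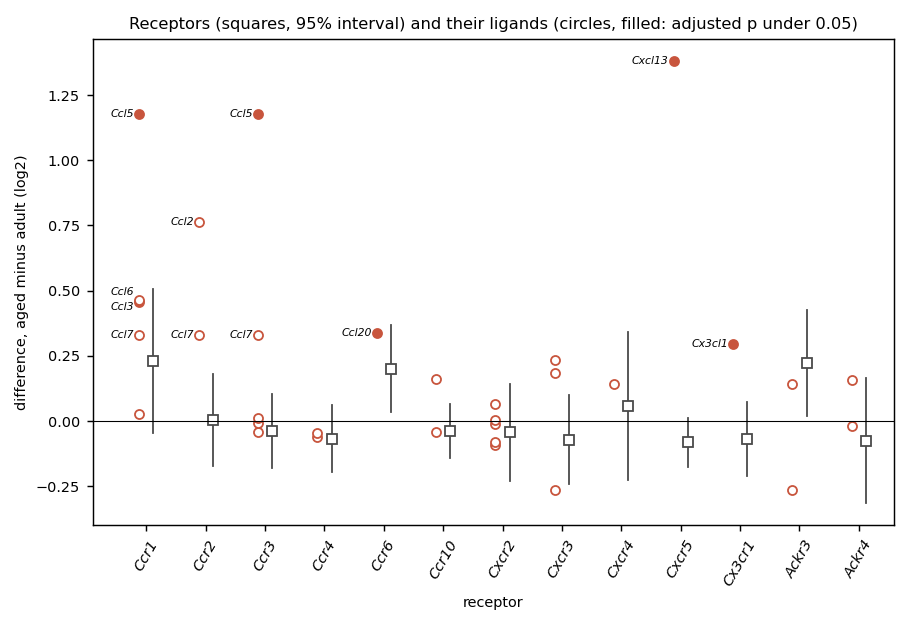
Differences between aged and adult hearts (log2, y axis) for 13 receptors (squares, with the 95% interval) and, to the left of each, their measured ligands by textbook pairing (circles, filled where the adjusted p was under 0.05). The called ligands Ccl5, Cxcl13 and Cx3cl1 lie above the whole interval of Ccr1 or Ccr3, Cxcr5 and Cx3cr1. Ccl3 lies within that of Ccr1 and Ccl20 within that of Ccr6. Among ligands that did not pass, Ccl2 and Ccl7 lie above the Ccr2 interval. Ccl7 also lies above that of Ccr3, and Ccl27 above that of Ccr10. Cxcl9 and Cxcl10 lie above the Cxcr3 interval and Cxcl11 below it and below that of Ackr3. Intervals of ligands are not drawn, and no ligand was tested against its receptor.

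Among the atypical receptors, Ackr3, which clears Cxcl12 from tissue, was 0.22 ± 0.09 SE higher and did not pass (adjusted p = 0.152). It read 0.04, -0.21, -0.13, -0.04 and -0.04 in adult and 0.29, -0.24, 0.19, 0.28 and 0.21 in aged hearts. Aged replicate 3 was the lowest of the 10 arrays, and the other 4 aged arrays were above all adult arrays. Without aged replicate 3 the difference was 0.32 (adjusted p = 0.00571), and with array weights it was 0.28 (adjusted p = 0.0253). Without both aged replicates 3 and 6 it was 0.33 (adjusted p = 0.0137). Ackr1, the Duffy antigen of venular endothelium and red cells, gave 0.21 ± 0.14 SE (adjusted p = 0.366), with 0.45 and 0.66 on aged replicates 3 and 6 and -0.17 to 0.04 on the other aged arrays. Without both of these arrays the difference was -0.04. Ackr2, a scavenger of inflammatory CC ligands, gave 0.09 ± 0.07 SE, and Ackr4, which scavenges Ccl19 and Ccl21, gave -0.07 ± 0.11 SE. The 2 probe sets of Ackr2 gave -0.02 and 0.21, neither of which passed over all probe sets.

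By gene order in RefSeq, members lie next to each other in several places, and neighbours did not all move together. Ccl5, Ccl9, Ccl6, Ccl3 and Ccl4 follow one another on chromosome 10 with 0 other protein-coding genes between them, and 3 of these 5 rose. Ccl2, Ccl7 and Ccl11 also adjoin each other on that chromosome, with differences of 0.76, 0.33 and 0.01, and 0 of the 3 were called by limma (2 at an unadjusted p under 0.05). On chromosome 14, Pf4 was the 1 member called of a run of 6 that also holds Cxcl1, Cxcl2, Cxcl3, Ppbp and Cxcl6. On chromosome 19, Cx3cl1 rose between its neighbours Ccl17 and Ccl22, which gave -0.04 and -0.06. Related neighbours can share sequence, so a probe set may read more than 1 of them, and the probe sequences were not analysed here.

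Of 50 measured genes for chemokine signalling and handling, 8 were higher and 0 lower by limma (14 and 1 at an unadjusted p under 0.05, 13 and 1 by the exact test), beside 6.77% and 5.09% of all genes by limma and 26.3% in either direction at an unadjusted p under 0.05. Their median difference was 0.07. They included Arrb2, the beta-arrestin that ends receptor signalling (0.33 ± 0.08 SE, adjusted p = 0.0224), Gnai2, the G protein subunit to which chemokine receptors couple (0.21 ± 0.06 SE, adjusted p = 0.0278), Rac1 (0.26 ± 0.07 SE, adjusted p = 0.0317) and the receptor kinase gene Grk5 (0.37 ± 0.10 SE, adjusted p = 0.0323). This count moved with single arrays. It was 0 when adult replicate 3 was left out and 1 when adult replicate 2, adult replicate 4, aged replicate 5 or aged replicate 6 was. It was 2 without adult replicate 6, 3 without aged replicate 4 and 4 without adult replicate 1. Without both aged replicates 3 and 6 it was 2.

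Of 28 measured cytokine, receptor and sensor genes known to induce chemokines, 6 were higher and 0 lower (15 and 0 at an unadjusted p under 0.05, 11 and 0 by the exact test), with a median difference of 0.18. Over all genes 6.77% were higher, 5.09% were lower and 26.3% had an unadjusted p under 0.05. Those of smallest p were the tumor necrosis factor receptor gene Tnfrsf1a (0.39 ± 0.07 SE, adjusted p = 0.00512), Il4r (0.26 ± 0.06 SE, adjusted p = 0.0102), the bacterial sensor gene Tlr2 (0.35 ± 0.08 SE, adjusted p = 0.0127) and its adaptor gene Myd88 (0.40 ± 0.10 SE, adjusted p = 0.0191). The count was 3 without adult replicate 3 or aged replicate 5, and 2 without both aged replicates 3 and 6.

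Markers of several other cell types also differed between the ages over the same arrays. Of the 8 cardiomyocyte markers, 3 were called lower: the myosin gene Myh6 (-1.24 ± 0.16 SE, adjusted p = 0.00124), Actn2 (-0.46 ± 0.09 SE, adjusted p = 0.00747) and Ryr2 (-0.55 ± 0.11 SE, adjusted p = 0.00786). Tnnt2 was lower without overlap and did not pass (-0.08 ± 0.04 SE, adjusted p = 0.200). Myh7, the other cardiac myosin heavy chain gene, was higher (0.76 ± 0.16 SE, adjusted p = 0.0114). With Myh7, 5 of the 8 did not overlap between the ages. Over all genes 5.09% were called lower and 9.91% did not overlap. The cardiomyocyte list mean ran from -0.02 to 0.20 in adult and from -0.29 to 0.02 in aged hearts. The atrial markers Nppa, Myl7, Myl4 and Sln had list means from -1.05 to -0.29 in adult and from 0.16 to 0.83 in aged hearts, with 2 of 4 called. Fibroblast marker means ran from -0.26 to 0.03 and from -0.08 to 0.43, with 4 of 8 called. Monocyte marker means ran from -0.26 to 0.08 and from 0.01 to 0.63, with 1 of 6 called, the Fc receptor gene Fcgr3a. In that list Itgam gave -0.06 and Ccr2, also a member here, gave 0.00. The part of tissue composition in the chemokine results was not tested.

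**Figure D5:**
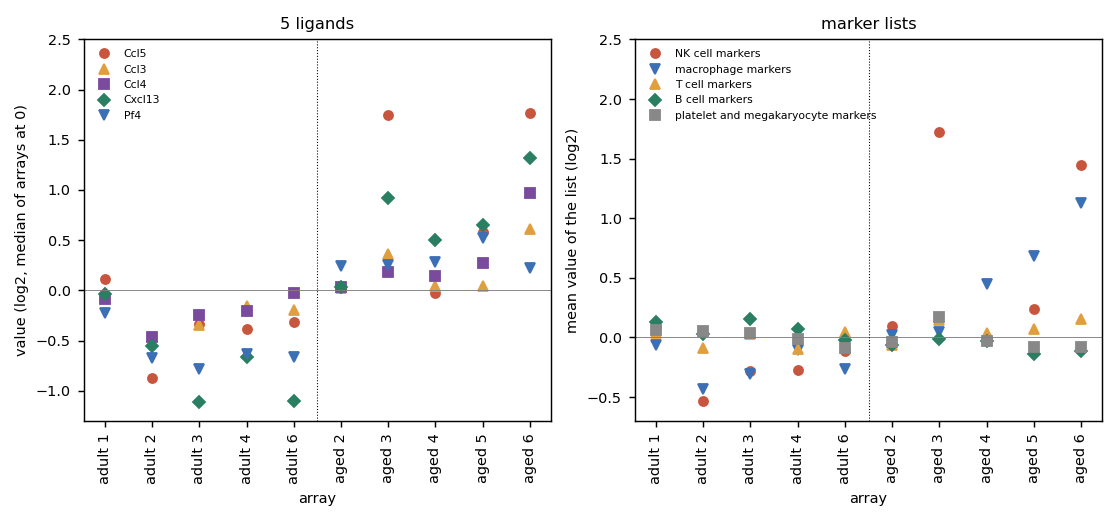
Values of 5 ligands (left) and mean values of 5 marker lists (right) on each array (x axis), both in log2 with array medians per probe set at 0. Ccl5 and the NK cell list are highest on aged replicates 3 and 6, as is the T cell list on a smaller scale (0.145 and 0.151). The T cell, B cell and platelet lists lie between -0.14 and 0.17 on every array.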

How the data were processed

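Hearts of adult and aged rats were measured, 5 arrays each, on Affymetrix Rat Genome 230 2.0 arrays after 2 cycles of cDNA synthesis and biotin labelling, per the labels' protocols. The authors' deposited table holds signed log values, used as log2; the base is not stated and was inferred from their single-precision step, and every probe set has a median of 0 over the arrays within 1e-06. The software, background correction and normalization behind it are not given in the labels used here. Gene names came from the platform annotation, updated by gene identifier through RefSeq (20826 with 1 gene symbol, 436 with several, 9780 with none listed), and averaged per gene. Aged and adult arrays were compared over all 14217 genes with limma 3.58.1 (lmFit, eBayes) in R 4.3.3, Benjamini-Hochberg adjusted, a test checked on simulated data. Adjusted p under 0.05 counts as higher or lower. The exact test permutes the 10 arrays, is two-sided and cannot give a p below 0.00794. Every member could be named, with array values for those that passed and others near it, and of each other list up to 4 genes of smallest p. Members and lists were chosen with earlier results of these data known. The labels state no batch. Python 3.11.15 prepared tables and plots. For arrays, their number limits the precision.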

Additional observations from a re-analysis of the deposited data

Results flagged for a closer look

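In 94 sets of 5 arrays (47 genes at each age), 11 highest or lowest arrays lay far from the others by Dixon's criterion for 5 values, and chance flags about 1 in 20 sets. Aged replicate 3 was apart in 4 of the genes: low in Ackr3 (-0.24, nearest array 0.19), Ccl20 (-0.0282, nearest 0.258) and Cxcr4 (-0.46, nearest 0.01) and high in Ccl11 (0.14, nearest 0.01). Aged replicate 6 was apart in Ccl4 (0.97, nearest 0.27). Aged replicate 5 was high in Pf4 (0.52, nearest 0.28), and adult replicate 1 was high in the same gene (-0.23, nearest -0.63). Aged replicate 4 was apart in Cxcl2 (-0.18, nearest -0.02) and Cxcr5 (0.0118, nearest -0.0458). Adult replicate 2 was high in Cxcl2 (0.22, nearest 0.04), and adult replicate 6 was low in Cxcr1 (-0.14, nearest 0.09).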

How the results depend on the processing

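Of 984 values of single members under other settings, 904 kept their direction and side of the threshold, 21 lost a call, 17 gained one and 42 changed sign. The 42 belonged to 14 members that were not called, were at most 0.066 in size and had adjusted p-values of at least 0.526. With array weights they were Ccl11 (-0.00446), Ccl19 (0.00386), Ccl9 (-0.0189) and Cxcl3 (-0.00667), with the probe set of largest variance Cxcl3 (-0.0535), and with quantile normalization Ccr2 (-0.00666). Without aged replicates 3 and 6 they were Ackr1 (-0.0354), Ccl11 (-0.0223), Ccl17 (0.00152), Ccl9 (-0.0397), Ccr2 (-0.0123), Cxcl3 (-0.00205) and Cxcr2 (0.00141). On the 8 arrays described below, Ackr4 gave 0.00421 and Ccl21 -0.012, with and without the replicate block. With 1 array left out, the ranges that crossed 0 were -0.139 to 0.0177 for Ackr4, -0.0219 to 0.0694 for Ccl11, -0.0661 to 0.022 for Ccl19, -0.00131 to 0.237 for Ccl21, -0.0499 to 0.0426 for Ccl24, -0.066 to 0.0715 for Ccl9, -0.0454 to 0.0502 for Ccr2, -0.0721 to 0.00647 for Ccr3, -0.0114 to 0.021 for Cxcl3, -0.0572 to 0.0258 for Cxcl6, -0.0948 to 0.0128 for Cxcr2 and -0.0279 to 0.17 for Cxcr4. Cxcl13, Pf4, Cxcl16 and Cx3cl1 kept their call in all 21 settings run. Leaving out 1 array gave 5 to 11 members called higher and 0 lower, 988 to 1994 genes called in all, 0 to 9 signalling genes and 3 to 9 cytokine genes higher. Without aged replicates 3 and 6 these were 1012 genes, 2 signalling genes and 2 cytokine genes. Array weights called 10 cytokine genes. The exact test at an unadjusted p under 0.05 called 1 member lower. The replicate block, over the 8 arrays whose title number occurs at both ages, called 1069 genes, 3 signalling genes and 9 members (Ccl20 was lost, adjusted p = 0.0578, and Ccl2 and Ccl7 were gained); the same 8 arrays without it, chosen after seeing the data, called 929, 1 and 8. Numbers did not pair the arrays (correlations 0.03 to 0.15, 1 of 4 adult arrays closest to its own number). The cause of these changes was not tested. Signal over background was not analysed here.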
